A study of Mus musculus with 12 samples.

Results

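Rev1 knockout and wild-type (WT) blood progenitors were compared across genes. The comparison took the plates whose genotype label gives a WT Pcna and a homozygous Rev1 mutant gene (Rev1-/-, 3 plates, called Rev1 knockout here) and those labelled WT for both genes (3 plates), 6 of the 12 plates of the series. All cells were LSK cells (lineage-negative, Sca-1-positive, Kit-positive progenitors) isolated by FACS at embryonic day 18.5, from livers of C57BL/6J fetuses. The other 6 plates, 2 of homozygous Pcna K164R and 4 labelled double mutant, entered the fit through the shared estimate of the spread and the session term, which ties the plates of different sort dates together. The labels do not describe the Rev1 allele, the sex of the fetuses or how many fetuses a plate holds, so the p-values here rest on plate-to-plate spread, part of which may be technical.

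REV1 is a translesion DNA polymerase that inserts bases opposite damaged template and serves as a scaffold that recruits other translesion polymerases. PCNA, the sliding clamp of replication, is ubiquitinated at stalled forks and helps to bring these polymerases in. Fetal liver LSK cells are a dividing pool of stem cells and multipotent progenitors of the blood, with early lymphoid, myeloid, erythroid or mast cell bias.

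Plates were profiled by SORT-seq, a method that counts the 3' ends of messenger RNAs by unique molecular barcodes (UMIs). Wells with at least 1000 UMIs were kept, which left 1640 of 2304 wells, and their counts were summed per gene and plate. WT replicates 1, 2 and 3 gave 381, 305 and 171 kept wells, and Rev1 knockout replicates 327, 213 and 243. The mean was 261 ± 59.1 wells in the knockout and 286 ± 106 in WT (SD, n = 3 each, two-sided exact permutation p = 0.8). The median UMI number per well was 14960, 7537 and 12280 in WT and 16826, 17836 and 16503 in the knockout (exact permutation p = 0.1, the smallest that 3 against 3 plates allows). The knockout wells were therefore the deeper ones in these plates, and WT replicate 2 was the shallowest. Plates of a genotype were not near-identical, with a chi-square statistic per degree of freedom of at least 8.11 between any pair.

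The layout limits what the comparison can separate. WT replicate 1 was sorted in session 1, Rev1 knockout replicate 1 in session 2, and replicates 2 and 3 of both genotypes in session 3. Session 3 is therefore the only date that holds both genotypes, and its values are given beside many of the pooled ones. The pooled log2 fold changes are adjusted for session, so they can exceed the difference between the plate values printed with them. Session 2 is tied to the other dates only through the 1 double mutant plate sorted with Rev1 knockout replicate 1. Sex also differed between the groups. WT plates held 2, 3 and 5 UMIs of Xist, the RNA of the inactive X chromosome, and 2100, 942 and 600 UMIs of Y-linked genes. Rev1 knockout plates held 2897, 1485 and 1708 Xist UMIs and 0, 0 and 2 Y-linked UMIs. All WT plates thus read as male and all Rev1 knockout plates as female, and within these 6 plates the genotype and the sex cannot be told apart. Genes on X and Y were left out throughout. Values from a fit with the female share of wells as a covariate, which draws on the other 6 plates, are given beside most gene groups and drawn for 37 lists in the plot of list medians. The share hardly varied within WT (at most 2.16%) or within the knockout (100%), so the covariate's slope rests almost wholly on those other plates. In double mutant replicate 3 the share came from only 4 wells with Xist alone and 11 with Y-linked UMIs alone. The covariate values are therefore uncertain. Kit, one of the receptors used for the sort, was read at 390.3, 505 and 325 CPM (counts relative to the plate's total, scaled by the TMM method, which balances libraries of unlike composition) in WT and at 297, 239 and 291 in the knockout. Ly6a, which encodes Sca-1, was read at 56.0, 75.3 and 67.2 CPM and at 64.7, 101 and 88.9. Both markers of the gate were therefore present in every plate.

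Rev1 itself (chromosome 1, 38052786 to 38129921, GRCm38) was sparse in all 6 plates. WT plates held 80, 59 and 33 Rev1 UMIs, or 10.5, 18.4 and 11.98 CPM. Rev1 knockout plates held 37, 6 and 20 UMIs, or 5.62, 1.26 and 3.70 CPM, and every knockout plate lay below every WT plate. The log2 fold change was -2.92 ± 0.66 (SE, edgeR quasi-likelihood test, adjusted p = 0.301), which did not pass the threshold of 0.05. DESeq2 gave -2.95 with an adjusted p of 0.00881, and session 3 alone gave -2.58 ± 0.51. Transcript remained countable in the knockout, and 3' tags outside a deleted stretch would check nothing about the protein. Among the other plates of the fit, the library labelled double mutant replicate 4 went against its label, since its 33 Rev1 UMIs came to 13.4 CPM, a level like that of WT. Double mutant replicates 1 and 2 held 15 and 24 Rev1 UMIs (1.33 and 2.50 CPM) and the thin replicate 3 held 1. With replicate 4 of that label left out, the Rev1 log2 fold change was -2.64, and 1 gene passed edgeR's test. Pcna was read at 658, 716 and 430.2 CPM in WT and 798, 482 and 575 in the knockout, with overlapping plates (0.24 ± 0.38, edgeR adjusted p = 0.853).

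No gene passed the threshold in the Rev1 knockout against WT. In edgeR's test with Benjamini-Hochberg adjustment, 0 of 11799 genes were called higher and 0 lower (0% in each direction), and the smallest adjusted p was 0.232. At an unadjusted p under 0.05 there were 485 genes higher (4.11%) and 579 lower (4.91%). The 3 knockout plates lay above all 3 WT plates for 724 genes (6.14%) and below them for 643 (5.45%). DESeq2 called 26 genes higher (0.22%) and 32 lower (0.271%), and edgeR within session 3 called 3 higher and 11 lower. Of the 14 genes called within session 3, 8 were also among the 58 called by DESeq2. The median log2 fold change over all genes was 0.02. The genes described below are therefore those nearest to the threshold, given as values and not as calls.

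Several genes had higher values in all 3 knockout plates. Ide, the insulin-degrading enzyme (chromosome 19, 37268743 to 37334544), stood at 104, 102 and 87.1 CPM in WT and 178, 201 and 186 in the knockout (1.07 ± 0.21, edgeR adjusted p = 0.232), with a clear gap between the groups. Tmsb10, which encodes the actin-binding peptide thymosin beta-10 (chromosome 6, 72957347 to 72958748), stood at 518, 199 and 321 CPM in WT and 609, 659 and 660.3 in the knockout (1.38 ± 0.28, adjusted p = 0.232). Ass1, the argininosuccinate synthase of arginine synthesis, stood at 25.7, 11.2 and 18.9 CPM against 26.7, 42.5 and 40.6 (1.67 ± 0.36, adjusted p = 0.28). For Tmsb10 and Ass1 the gap between WT replicate 1 and the lowest knockout plate was small. With the female share as a covariate the log2 fold changes were 1.48 for Ide, 0.66 for Tmsb10 and 0.93 for Ass1.

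Further genes of this kind rested on session 3. The septin gene Sept1 was read at 76.4, 27.5 and 28.0 CPM in WT and 72.9, 59.3 and 58.7 in the knockout, so that WT replicate 1 was the highest of the 6 plates. Znhit1, a subunit of a chromatin remodelling complex, followed the same order, at 32.1, 8.75 and 13.1 CPM against 27.05, 24.4 and 26.7, as did the transcriptional repressor Nacc1, at 88.0, 27.2 and 39.6 against 73.5, 62.0 and 59.6. Their log2 fold changes were 1.13 ± 0.21, 1.26 ± 0.24 and 0.97 ± 0.22. Cox4i2, an isoform of a cytochrome c oxidase subunit, was lower in abundance and did not overlap, at 7.38, 3.12 and 3.27 CPM against 8.96, 10.1 and 9.07 (1.81 ± 0.40).

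On the side of lower values in the knockout, Jun, a subunit of the AP-1 transcription factor (chromosome 4, 95049036 to 95052222), was read at 11.1, 38.1 and 17.8 CPM in WT and at 6.84, 8.62 and 6.67 in the knockout. All knockout plates lay below all WT plates, and WT replicate 2 stood above the other WT plates (-1.85 ± 0.35, edgeR adjusted p = 0.232). Pdcd4, an inhibitor of translation initiation, stood at 67.8, 135 and 115 CPM against 64.1, 56.8 and 65.4 (-1.14 ± 0.22, adjusted p = 0.232). Gpc1, a cell surface heparan sulphate proteoglycan, stood at 2.77, 10.6 and 25.4 CPM against 1.67, 1.68 and 2.41 (-3.00 ± 0.60, adjusted p = 0.232). The WT plates spread far more than the knockout plates for Gpc1. The list of immediate-early and AP-1 genes, to which Jun belongs, had 5 of 18 members above 0 and a median of -0.43 (-0.38 within session 3 and -0.71 with the sex covariate). Ttc39b was read at 16.5, 18.1 and 19.2 CPM against 14.4, 8.41 and 5.74 (-1.41 ± 0.28), and the phosphoinositide phosphatase gene Mtmr6 at 50.3, 81.9 and 83.1 against 41.8, 38.5 and 41.3 (-0.96 ± 0.22).

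For several enzyme and trafficking genes the gap lay between the knockout and the WT plates of session 3. Alas1, the first enzyme of haem synthesis, was read at 36.0, 87.8 and 90.03 CPM in WT and 34.0, 39.7 and 35.2 in the knockout (-1.08 ± 0.23, edgeR adjusted p = 0.28). Gsr, the glutathione reductase, stood at 44.4, 191 and 186 CPM against 32.2, 63.1 and 58.0 (-1.46 ± 0.32, adjusted p = 0.287). Tmx4, a thioredoxin-like membrane protein, stood at 43.2, 103 and 109 against 47.9, 42.5 and 34.8 (-1.23 ± 0.25), and the adaptor subunit gene Ap3s1 at 42.0, 110.0 and 110.4 against 29.5, 43.1 and 39.4 (-1.27 ± 0.26). In each of these genes WT replicate 1 lay within the range of the knockout plates. Alas1, Gsr, Tmx4 and Ap3s1 were among the 11 genes called lower within session 3, with log2 fold changes of -1.25 ± 0.16, -1.64 ± 0.14, -1.45 ± 0.17 and -1.42 ± 0.15. Skint3 was sparse, at 4.74, 9.997 and 5.81 CPM against 6.53, 1.68 and 2.22, and its plates overlapped (-2.20 ± 0.48). Crp was read with 3, 5 and 9 UMIs in WT and 0, 0 and 1 in the knockout, too few to give a size.

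**Figure D1:**
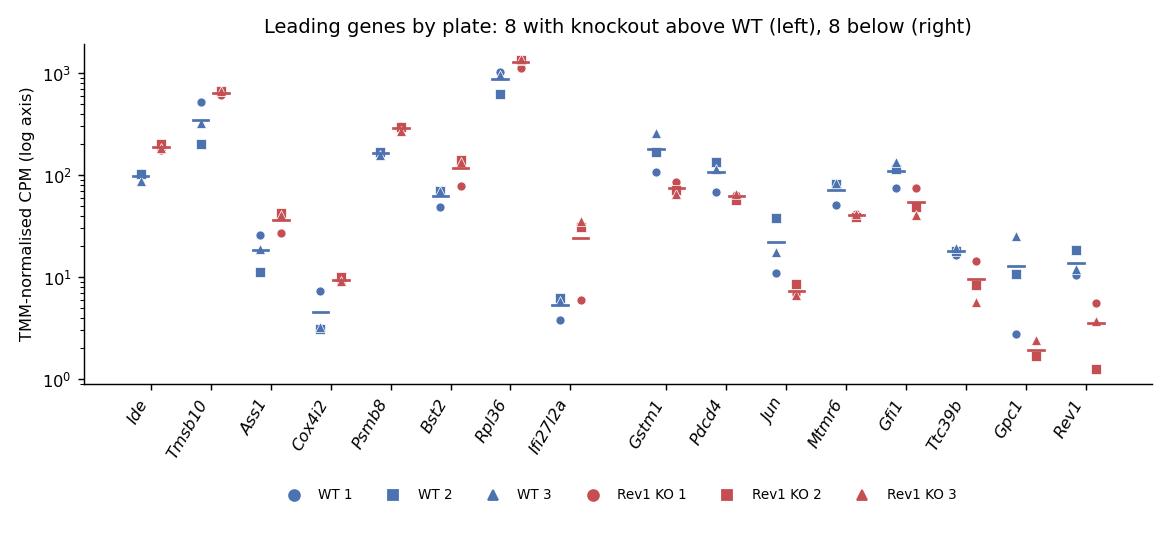
TMM-normalised CPM on a log axis for 16 of the leading genes, with 1 point per plate (circle, square and triangle for replicates 1, 2 and 3, blue for WT and red for Rev1 knockout) and a bar at each group's mean. Ide goes from 104, 102 and 87.1 CPM in WT to 178, 201 and 186 in the knockout, and in several genes, such as Ass1, WT replicate 1 lies nearest to the knockout plates.

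Interferon-stimulated genes, a set induced by type I interferon, had mostly higher values in the knockout plates. Of 53 members tested, 44 had a log2 fold change above 0 and 9 below, where 51.4% of all genes lay above 0. Their median was 0.53, beside 0.02 over all genes. The 3 knockout plates lay above all WT plates for 17 members and below them for 0. Of all genes, 6.14% lay above and 5.45% below. At an unadjusted p under 0.05, 17 members were higher and 0 lower, beside 4.11% and 4.91% of all genes. None passed after adjustment over all genes, in edgeR or in DESeq2. Their summed level was 3809, 4418 and 4371 CPM in WT and 4688, 5730 and 5479 in the knockout, with no overlap and with knockout replicate 1 closest to WT. Within session 3 the median was 0.44.

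Sex moves with the genotype here, and their parts cannot be told apart. With the female share of wells as a covariate the median of the interferon-stimulated genes was -0.04. In the other plates, the female Pcna K164R plate exceeded the male one by a median log2 difference of 0.03, and Xist-positive wells differed from Y-positive wells of double mutant replicate 1 by -0.06. Depth was measured too. With every kept well thinned to 1000 UMIs the median of the interferon-stimulated genes was 0.63, over the 41 members left.

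Bst2, which encodes tetherin, a membrane protein that holds budding virus at the cell surface (chromosome 8, 71534255 to 71537472), was read at 48.7, 69.7 and 70.4 CPM in WT and 78.4, 140.1 and 134 in the knockout. Replicates 2 and 3 of the knockout stood at about the same level, well above knockout replicate 1, and all 3 exceeded WT (1.02 ± 0.26, edgeR adjusted p = 0.386). No single well carried this, since the well with the most Bst2 UMIs held 2.52%, 2.55% and 2.77% of them in the knockout plates. Isg20, an antiviral exonuclease, stood at 31.1, 25.9 and 33.8 CPM against 34.2, 49.8 and 53.9 (0.81 ± 0.21, adjusted p = 0.386). Knockout replicate 1 exceeded the highest WT plate only slightly for Isg20. Ifitm2, which encodes a membrane protein that restricts viral entry, overlapped between the groups at 263, 119.7 and 163 CPM against 280.2, 244 and 198 (0.92 ± 0.29, adjusted p = 0.505).

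Further genes with higher values were chosen after their values were seen. They do not show the range of the group, since none of the 9 members below 0 is among the genes named here. Irf7, a factor that amplifies the interferon response, stood at 29.4, 18.1 and 33.8 CPM in WT against 38.4, 80.1 and 75.7 in the knockout (1.39 ± 0.66, edgeR adjusted p = 0.551), and Oas3, a sensor of double-stranded RNA, at 20.4, 27.5 and 28.7 against 31.9, 68.3 and 55.0 (1.04 ± 0.39). In both, knockout replicates 2 and 3 stood far above replicate 1. Ifi27l2a, an interferon-inducible gene outside the list, had the largest value of this kind, at 3.82, 6.25 and 5.81 CPM against 5.93, 30.7 and 35.4 (2.80 ± 0.64, adjusted p = 0.304). Knockout replicate 1 lay inside the WT range for Ifi27l2a, and the gene was one of the 3 called higher within session 3 (2.44 ± 0.26).

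Promoters were searched for the core of a known element, the interferon-stimulated response element, as GAAANNGAAA on both strands. The search covered the 250 bases before starts annotated by RefSeq (GRCm38.p6) and did not cover every chromosome. Of the tested members, 40 matched a promoter sequence and 19 of these held the motif (47.5%). It was held by 936 of 27025 genes with a promoter sequence (3.46%) and by 275 of the 8771 tested ones (3.14%). Among members whose knockout plates all exceeded WT it was found in 7 of 14 (50%), and among the other members in 12 of 26 (46.2%), so the motif did not mark the members with separated plates. The 4 of those 7 with the smallest p and every match within 150 bases of the start are shown to let the element be seen in place. Each line gives the 150 bases before the start, 5' to 3' on the gene's own strand, with the motif in capitals. Overlapping matches run together.
Bst2 (chr8:71537473-71537622, minus strand): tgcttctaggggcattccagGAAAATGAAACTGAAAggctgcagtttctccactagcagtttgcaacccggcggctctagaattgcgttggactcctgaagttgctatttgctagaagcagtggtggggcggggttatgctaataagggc
Oas3 (chr5:120777660-120777809, minus strand): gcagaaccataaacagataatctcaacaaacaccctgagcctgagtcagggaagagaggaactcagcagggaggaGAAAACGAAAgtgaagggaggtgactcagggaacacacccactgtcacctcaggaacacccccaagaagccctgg
Ifi203 (chr1:173942493-173942642, minus strand): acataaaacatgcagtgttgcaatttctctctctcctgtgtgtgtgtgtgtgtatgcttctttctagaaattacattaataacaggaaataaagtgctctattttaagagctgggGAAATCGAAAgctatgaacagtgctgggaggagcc
Oas1a (chr5:120907526-120907675, minus strand): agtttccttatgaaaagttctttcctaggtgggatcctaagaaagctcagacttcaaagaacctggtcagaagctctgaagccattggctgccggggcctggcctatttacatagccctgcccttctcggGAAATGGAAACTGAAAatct
The nearest match began 124 bases before the start in Bst2, 75 in Oas3, 35 in Ifi203 and 14 in Oas1a. A match is a run of letters and not a measured binding site.

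Genes of MHC class I presentation partly went the same way. Of 17 members tested, 11 lay above 0 and 6 below, with a median of 0.38 (0.15 within session 3 and 0.09 with the sex covariate). Their summed level did not overlap, at 2290, 2932 and 2437 CPM in WT and 3066, 3025 and 3182 in the knockout. Psmb8, a catalytic subunit of the immunoproteasome (chromosome 17, 34198195 to 34201454), was read at 166, 168 and 157 CPM in WT and 302, 297 and 268 in the knockout. The 2 groups were each tight and did not overlap (1.15 ± 0.33, edgeR adjusted p = 0.472). Within session 3 the Psmb8 log2 fold change was smaller, at 0.79 ± 0.14. Its partner subunit Psmb10 stood at 78.0, 58.1 and 84.2 CPM against 89.5, 113 and 107 (0.60 ± 0.23, adjusted p = 0.529). Tap2, a subunit of the peptide transporter, went the other way at 15.4, 25.3 and 17.4 CPM against 9.72, 12.8 and 14.999 (-0.77 ± 0.30, adjusted p = 0.529).

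**Figure D2:**
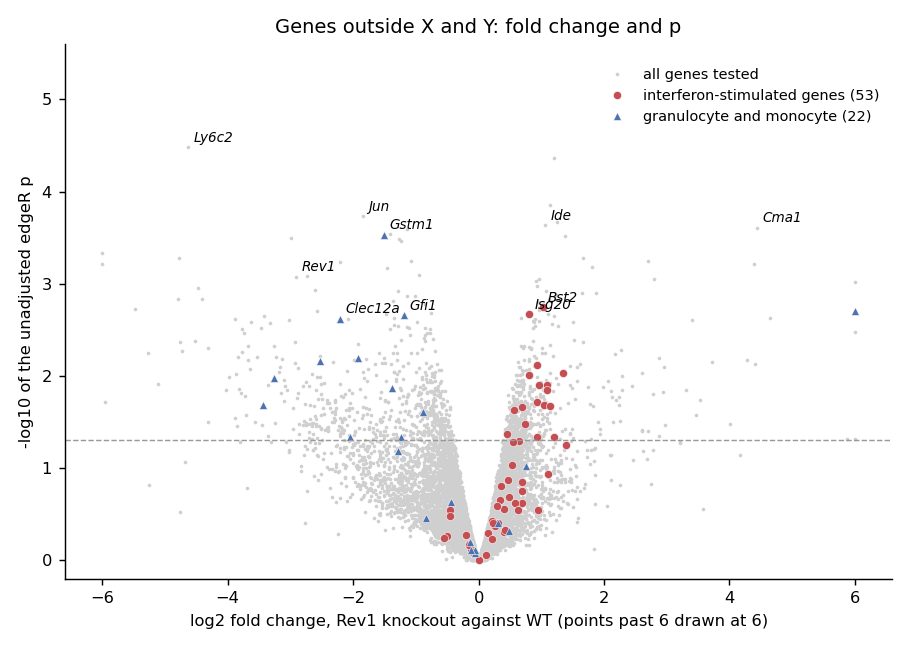
Log2 fold change (Rev1 knockout against WT) on the x axis and -log10 of the unadjusted edgeR p on the y axis for 11799 genes, with the 53 interferon-stimulated genes in red and the 22 granulocyte and monocyte genes in blue, and a dashed line at p of 0.05. Red points gather on the right, with 44 of 53 above 0, and blue triangles on the left, with 18 of 22 below 0.

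Granulocyte and monocyte genes had the lowest median of all 39 lists. Of 22 members tested, 4 lay above 0 and 18 below, with a median log2 fold change of -1.04. At an unadjusted p under 0.05, 11 members were lower and 1 higher, beside 4.91% and 4.11% of all genes. The knockout plates lay below all WT plates for 2 members and above them for 0. Of all genes, 5.45% lay below and 6.14% above. None passed edgeR's test over all genes, and DESeq2 called 1 member lower, Gstm1. The summed level was 1619, 3459 and 6835 CPM in WT and 1527, 2619 and 1757 in the knockout, so that the first plate of each group was alike and WT replicate 3 stood above all others. Without WT replicate 3 the median was -0.32, and with wells thinned to 1000 UMIs it was -0.41 over the 16 members left. Within session 3 it was -1.46, and with the sex covariate -1.38. In sums over wells, fewer cells of a kind and less RNA per cell cannot be told apart.

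The 2 members with separated plates, a share near that of all genes, were Gstm1 and Gfi1. Gstm1, a glutathione S-transferase that is abundant in early myeloid progenitors (chromosome 3, 108012250 to 108017973), was read at 108, 169 and 259 CPM in WT and 85.5, 72.1 and 65.2 in the knockout (-1.51 ± 0.30, edgeR adjusted p = 0.232). Gfi1, a transcriptional repressor needed for granulocyte development (chromosome 5, 107716655 to 107725805), stood at 75.5, 114 and 135 CPM against 74.3, 48.6 and 40.6 (-1.19 ± 0.31, adjusted p = 0.386). Replicate 1 of both genotypes had the same Gfi1 level, and the gap came from session 3, where edgeR called Gfi1 (-1.49 ± 0.17) and Gstm1 (-1.64 ± 0.21). The single well with the most UMIs held 28.3% of Gstm1 and 21.7% of Gfi1 UMIs in WT replicate 3. With the top well of each plate left out, the log2 fold changes were -1.37 and -1.13.

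Genes of neutrophil granules were unevenly spread over plates and wells. Elane, the neutrophil elastase gene, was chosen after its values were seen. It was counted with 309, 1270 and 2848 UMIs in WT and 6, 701 and 1 in the knockout, and 1 well of knockout replicate 2 held 563 of its 701. Elane UMIs were seen in 79, 150 and 143 WT wells and in 2, 77 and 1 knockout wells. The plates overlapped (-3.44 ± 1.29, edgeR adjusted p = 0.524). Mpo, the myeloperoxidase gene and likewise chosen after its values were seen, was read at 276, 666 and 1859 CPM in WT and 286, 606 and 315 in the knockout, so that only WT replicate 3 stood apart (-1.23 ± 0.55, adjusted p = 0.542). Ly6c2, which encodes a surface antigen of monocytes and granulocytes, had the smallest p of all genes. It was counted with 20, 86 and 251 UMIs in WT and 0, 7 and 15 in the knockout (-4.64 ± 0.72, adjusted p = 0.232). Its UMIs came from 6, 14 and 14 wells in WT and 0, 2 and 8 in the knockout. Fcnb, a ficolin of myeloid cells, was counted with 4, 73 and 372 UMIs in 2, 6 and 20 WT wells and with 2, 11 and 13 UMIs in 1, 3 and 1 knockout wells (-4.77 ± 1.02, adjusted p = 0.28). Both genes were thus seen in few wells of any plate.

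Mast cell proteases leaned the opposite way, and most of their UMIs lay in single wells wherever they were abundant. Of 12 mast cell and basophil genes tested, 10 lay above 0, with a median of 0.88 (1.05 within session 3 and 0.65 with the sex covariate). Cma1, the mast cell chymase gene, was counted with 660, 0 and 4 UMIs in WT and 1007, 403 and 264 in the knockout (4.45 ± 0.87, edgeR adjusted p = 0.232). The top well alone held 785 of 1007, 382 of 403 and 258 of 264 of the knockout UMIs. Tpsb2, a tryptase gene, was counted with 1708, 0 and 0 UMIs in WT and 1915, 320 and 221 in the knockout, of which the top wells held 1435, 289 and 190 (4.39 ± 0.95, adjusted p = 0.28). Cpa3, the mast cell carboxypeptidase gene, was counted with 1184, 23 and 16 UMIs against 1193, 356 and 175 (2.71 ± 0.58, adjusted p = 0.28). In WT replicate 1 the top well held 66.5% of Cma1, 53.5% of Tpsb2 and 61.3% of Cpa3 UMIs. DESeq2 called Cma1, Tpsb2 and Cpa3 higher (adjusted p = 0.00787, 0.0334 and 0.00214), and edgeR within session 3 called Cma1 and Tpsb2 (adjusted p = 0.0085 and 0.00422). With the top well left out, the log2 fold changes were 2.68 for Cma1, 3.503 for Tpsb2 and 1.08 for Cpa3. For all 3 genes replicate 1 of both genotypes held counts of the same order, and the WT plates of session 3 held almost none. The summed level of the 12 mast cell and basophil genes tested overlapped, at 1704, 1206 and 1392 CPM in WT and 1717, 1058 and 839 in the knockout.

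An adult beta-globin transcript, listed as Beta-s on chromosome 7, lay far below WT in every knockout plate. It was counted with 1262, 1927 and 3781 UMIs in WT and 78, 12 and 329 in the knockout (-4.41 ± 1.07, edgeR adjusted p = 0.346). The top well held 460, 818 and 2576 of these UMIs in WT and 59, 4 and 235 in the knockout. Beta-s UMIs were seen in 167, 117 and 99 WT wells and in 8, 9 and 25 knockout wells. The 4 genes tested from the globin list, which does not hold Beta-s, were sparse, with 2 above 0 and 2 below. One of those above 0, Hbb-y, was counted with 3, 1 and 2 UMIs in WT and 1, 2 and 99 in the knockout. Of the 99, 79 lay in 1 well. The summed level of the 27 erythroid genes tested, at 1683, 1115 and 1126 CPM in WT and 722, 712 and 1479 in the knockout, overlapped.

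**Figure D3:**
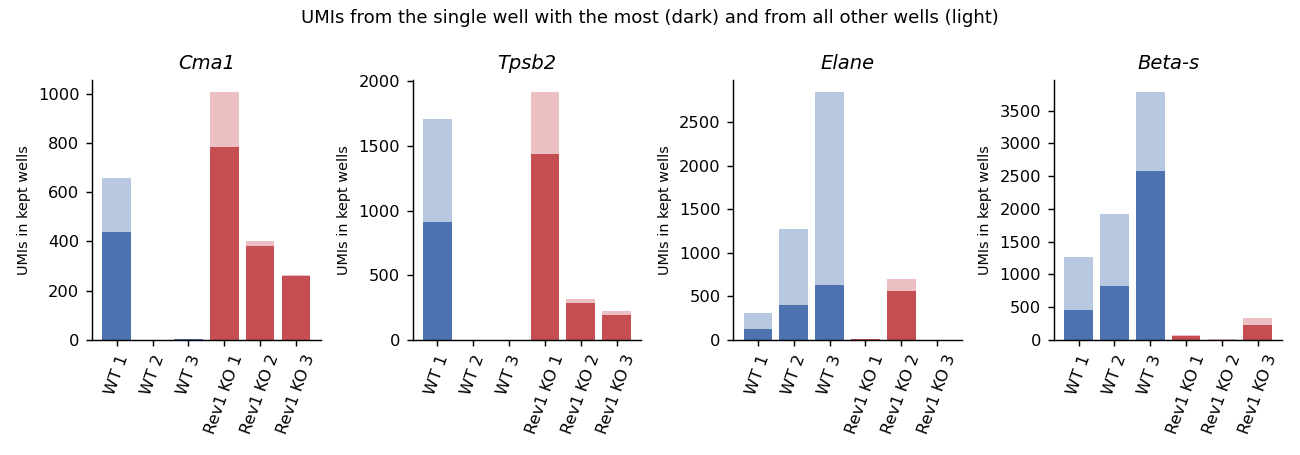
UMIs of Cma1, Tpsb2, Elane and Beta-s in each plate, with the single well that holds the most in the dark part of each bar and all other kept wells in the light part. In the knockout plates of session 3 nearly all Cma1 UMIs lie in 1 well (382 of 403 and 258 of 264), and 1 well of knockout replicate 2 holds 563 of its 701 Elane UMIs.

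Stem cell genes had values on both sides of WT. Of 32 members tested, 10 lay above 0 and 22 below, with a median of -0.18 (-0.34 within session 3 and -0.47 with the sex covariate). The knockout plates lay above all WT plates for 2 members, Cd34 and Cd27, and below them for 5, among them Kit, Esam, Prdm16 and Txnip, where 6.14% of all genes lay above and 5.45% below. No member passed edgeR's test, and DESeq2 called 1 lower, Hlf. The summed level was 4373, 4826 and 4213 CPM in WT and 4753, 3694 and 3535 in the knockout, with knockout replicate 1 inside the WT range.

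Hlf, a transcription factor of stem cells (chromosome 11, 90336535 to 90390917), was read at 420.4, 408 and 375 CPM in WT and 403, 246 and 216 in the knockout (-0.67 ± 0.21, edgeR adjusted p = 0.505). Mecom, which encodes the stem cell regulator EVI1 (chromosome 3, 29951296 to 30509759), stood at 70.1, 109 and 106 CPM against 109, 41.2 and 43.5 (-0.99 ± 0.32, adjusted p = 0.521). In both genes knockout replicates 2 and 3 were low and knockout replicate 1 was at the WT level. Within session 3 the values were -0.77 ± 0.14 for Hlf and -1.34 ± 0.15 for Mecom, and edgeR called Mecom there. Procr, the endothelial protein C receptor found on stem cells, was chosen after its values were seen and had the same order, at 25.8, 33.4 and 33.4 CPM against 32.5, 16.2 and 14.999 (-0.84 ± 0.35). Cd34, a sialomucin of progenitors, was read at 329.6, 273 and 272 CPM in WT and 407, 425 and 350.2 in the knockout (0.70 ± 0.24, adjusted p = 0.521). Cd27, a receptor of progenitors and lymphocytes chosen after its values were seen, stood at 108, 111 and 100.2 CPM against 143, 158 and 138 (0.71 ± 0.25, adjusted p = 0.521). The low values of Hlf, Mecom and Procr in knockout replicates 2 and 3 were thus not shared by Cd34 and Cd27.

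Imprinted growth genes are expressed from 1 parental copy and known in stem cells for the Dlk1-Meg3 locus. Of 18 tested, 4 lay above 0 and 14 below, with a median of -0.62 (-0.67 within session 3 and -1.03 with the sex covariate). Their summed level did not follow the median, at 1664, 1264 and 1256 CPM in WT and 2204, 1283 and 1340 in the knockout. Meg3, a maternally expressed long RNA (chromosome 12, 109540996 to 109571729), was read at 59.8, 68.1 and 60.6 CPM in WT and 65.2, 30.3 and 32.6 in the knockout (-1.28 ± 0.34, edgeR adjusted p = 0.388). Sgce, a sarcoglycan gene, stood at 14.5, 24.1 and 17.8 CPM against 15.5, 9.88 and 10.2 (-0.98 ± 0.29, adjusted p = 0.489). As for Hlf, knockout replicate 1 was at the WT level. Ddc, which encodes the aromatic amino acid decarboxylase, was sparse and lay the other way, with 29, 1 and 0 UMIs in WT and 23, 11 and 9 in the knockout (2.29 ± 0.75, edgeR adjusted p = 0.521), and its plates overlapped. Dlk1, of the same locus as Meg3, was read at 73.6, 55.3 and 42.8 CPM in WT and 116, 66.9 and 65.4 in the knockout. Its log2 fold change was thus opposite in sign to that of Meg3 (0.54 ± 0.27, edgeR adjusted p = 0.565), with overlapping plates. It was 0.42 within session 3 and -0.02 with the sex covariate. Igf2r, the receptor that clears insulin-like growth factor 2, was chosen after its values were seen because its plates did not overlap, at 53.5, 49.0 and 52.6 CPM against 32.2, 34.5 and 32.4 (-0.63 ± 0.30, adjusted p = 0.551). Without WT replicate 2 the list's median was -0.24 over the 15 members left, and with thinned wells -0.34 over the 10 left.

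Genes of the B lineage and of lymphoid priming mostly had values above 0, those of the B lineage at low counts. The 7 T and innate lymphoid genes tested went the other way. Of these, 2 lay above 0 and 5 below, with a median of -0.50 (-0.60 within session 3 and -0.96 with the sex covariate). Of the 10 B lineage genes tested, 10 lay above 0, with a median of 1.56 (1.32 within session 3 and 1.42 with the sex covariate). Of 15 lymphoid priming genes 13 did, with a median of 0.35, which was 0.18 within session 3 and turned to -0.11 with the sex covariate. The B lineage list's summed level overlapped, at 519, 394 and 387 CPM in WT and 405, 416 and 451 in the knockout. Ebf1, a transcription factor that commits cells to the B lineage, was counted with 13, 1 and 0 UMIs in WT and 20, 28 and 6 in the knockout (3.53 ± 1.29, edgeR adjusted p = 0.524). Cd79a, a signalling chain of the B cell receptor, was counted with 68, 7 and 0 UMIs against 89, 86 and 29 (2.88 ± 1.29, adjusted p = 0.538). Il7r, the interleukin-7 receptor, was read at 10.01, 2.19 and 1.82 CPM against 5.77, 13.5 and 9.999 (2.29 ± 0.80, adjusted p = 0.521). WT replicate 1 held as much of these 3 genes as some knockout plates. With wells thinned to 1000 UMIs only 5 of the 10 B lineage genes were left, with a median of -0.27. Without knockout replicate 2 the median of the B lineage list was 0.63.

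**Figure D4:**
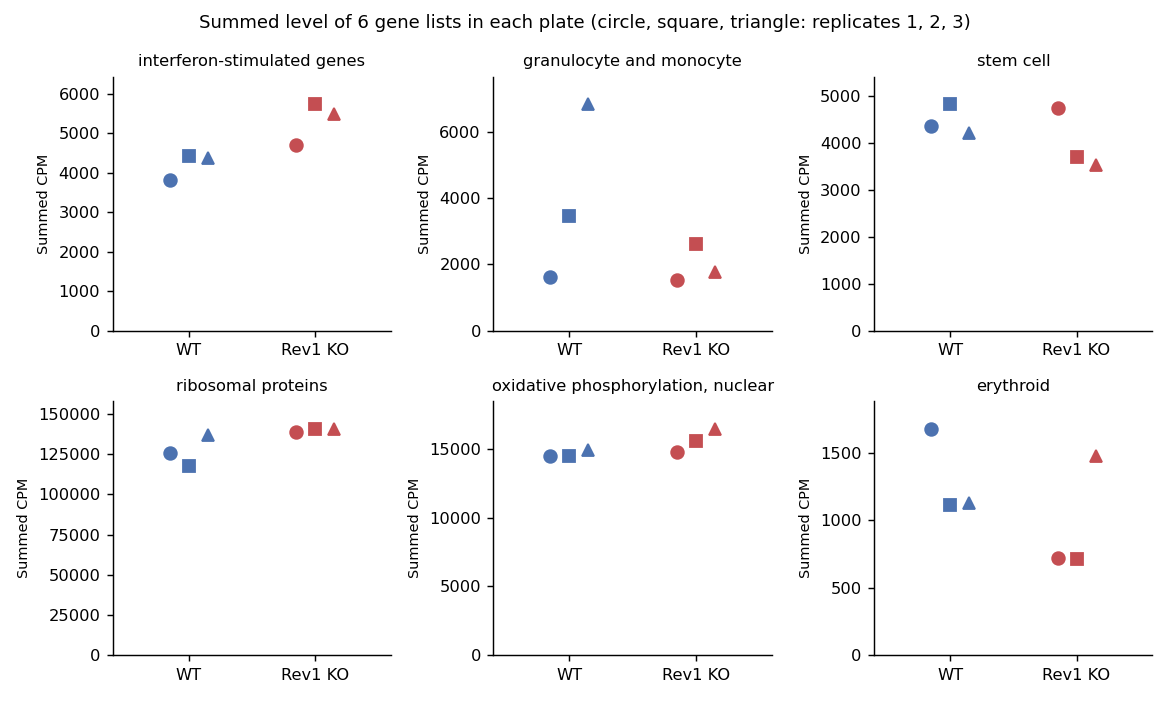
Summed TMM-normalised CPM of 6 gene lists in each plate, with 1 point per plate (circle, square and triangle for replicates 1, 2 and 3) and axes that start at 0. The interferon-stimulated genes separate the groups, from 3809 to 4418 CPM in WT and from 4688 to 5730 in the knockout. The ribosomal proteins do so narrowly, from 117780 to 137000 in WT and from 138690 to 141040 in the knockout. The granulocyte, stem cell, oxidative phosphorylation and erythroid lists overlap.

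Most genes of protein synthesis and respiration had values above 0, by an amount that varied with the fit and the plates used. Of 62 cytosolic ribosomal protein genes tested, 58 lay above 0, with a median of 0.46, of 71 nuclear genes of oxidative phosphorylation 67 did, with a median of 0.36, and of 43 ribosome biogenesis and Myc network genes 35 did, with a median of 0.36. The knockout plates lay above all WT plates for 10, 10 and 8 of them and below for 0 in each list. Of all genes, 6.14% lay above and 5.45% below. DESeq2 called 1 member of each list higher, and edgeR called 0. Within session 3 the medians were 0.12, 0.14 and 0.31, and with the sex covariate 0.20, 0.21 and 0.62. Without Rev1 knockout replicate 1 the first 2 were 0.19 and 0.21. Without double mutant replicate 3, the thinnest library of the series, which shares session 2 with Rev1 knockout replicate 1, the median of the ribosomal proteins was 0.16 and that of oxidative phosphorylation 0.18. The female Pcna K164R plate exceeded the male one by a median of 0.29 for ribosomal proteins and 0.18 for oxidative phosphorylation, and by -0.22 for ribosome biogenesis.

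Rpl18, a protein of the large ribosomal subunit, was read at 1824, 1027 and 1417 CPM in WT and 1796, 1966 and 1946 in the knockout (0.88 ± 0.27, edgeR adjusted p = 0.503). Rpl36, of the same subunit and with separated plates, stood at 1030, 627 and 953 CPM against 1124, 1354 and 1356 (1.15 ± 0.39, adjusted p = 0.521). Cox6b1, a subunit of cytochrome c oxidase, stood at 279.9, 137 and 178 CPM against 228, 258 and 289 (0.89 ± 0.24, adjusted p = 0.388). Mrto4, a ribosome assembly factor, stood at 55.3, 21.2 and 24.7 CPM against 49.99, 47.7 and 58.0 (0.96 ± 0.25, adjusted p = 0.386), and Nop56, a core protein of box C/D snoRNPs, at 568, 298 and 363 against 669, 546 and 596 (0.68 ± 0.25). WT replicate 2 was the lowest of the 6 plates in each of these genes, and it was also the plate with the fewest UMIs per well. The part of depth in this was not tested beyond the thinned wells, where the ribosomal median was 0.42. Hspa8, the constitutive HSC70 chaperone, had separated plates at 1900, 1610 and 1740 CPM against 2473, 2520 and 2568 (0.88 ± 0.33, adjusted p = 0.524), as did Phgdh, the first enzyme of serine synthesis, at 154, 144 and 178 against 182, 250.2 and 235 (0.85 ± 0.30). Within session 3 the log2 fold changes were 0.60 ± 0.11 for Hspa8 and 0.59 ± 0.15 for Phgdh.

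Genes of DNA damage tolerance and repair, the pathway in which Rev1 acts, had medians near that of all genes in the fit over 12 plates. The medians were 0.00 for 16 translesion and related polymerase genes, 0.02 for 17 genes of PCNA ubiquitination and template switching, 0.06 for 37 genes of checkpoints and homologous recombination and -0.01 for 15 of the Fanconi anaemia pathway. In the same order they were 0.14, -0.08, 0.03 and 0.07 within session 3, and 0.24, -0.03, 0.27 and 0.29 with the sex covariate. None of their members passed edgeR's test, and DESeq2 called only Rev1. Besides Rev1, the translesion list had 3 of 16 members with separated plates, all above WT, where 6.14% of all genes lay above. Pold4, the smallest subunit of DNA polymerase delta, was read at 21.3, 11.9 and 15.2 CPM in WT and 22.03, 26.3 and 23.7 in the knockout (1.02 ± 0.30, edgeR adjusted p = 0.489). Mad2l2, which encodes the REV7 subunit of polymerase zeta and binds REV1, stood at 21.7, 18.1 and 14.9 CPM against 28.0, 24.0 and 22.6 (0.57 ± 0.26, adjusted p = 0.544). Pold1, the catalytic subunit of polymerase delta chosen after its values were seen, stood at 81.1, 61.2 and 71.5 CPM against 94.8, 96.3 and 83.3 (0.63 ± 0.35). Among the other lists, Ube2v1, a partner of the enzyme that builds ubiquitin chains on PCNA, stood at 147, 125 and 145 CPM against 153, 149 and 185 (0.57 ± 0.33), and Rad50, of the MRN complex that binds broken ends, at 112, 79.0 and 79.9 against 135, 145 and 122 (0.59 ± 0.24, adjusted p = 0.529). Rpa3, of the complex that coats single-stranded DNA, overlapped, with WT replicate 2 far above the rest at 16.3, 86.5 and 7.62 CPM against 8.96, 10.1 and 14.8 (-2.12 ± 0.82).

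Targets of p53, the factor activated by DNA damage, lay on both sides of WT. Of 33 tested, 12 lay above 0 and 21 below, with a median of -0.12 (-0.21 within session 3 and -0.05 with the sex covariate). At an unadjusted p under 0.05, 1 member was higher and 2 lower, beside 4.11% and 4.91% of all genes, and 0 were called. Cdkn1a, the p53 target that encodes the cell cycle inhibitor p21, was chosen after its values were seen and was read at 21.5, 6.87 and 11.3 CPM in WT and 13.7, 13.7 and 9.63 in the knockout (0.17 ± 0.30, edgeR adjusted p = 0.875). The knockout plates lay inside the WT range. Fdxr, a mitochondrial reductase, stood at 20.7, 10.9 and 13.4 CPM against 24.0, 22.7 and 21.5 (0.84 ± 0.35, adjusted p = 0.529). Pmaip1, which encodes the pro-apoptotic protein NOXA, was sparse at 1.98, 2.81 and 2.90 CPM against 0.456, 1.05 and 1.11 (-1.58 ± 0.64, adjusted p = 0.529), and Cdkn2aip stood at 15.02, 24.4 and 17.4 against 11.4, 12.6 and 12.8 (-0.69 ± 0.27). Fdxr therefore lay on the opposite side of WT from Pmaip1 and Cdkn2aip. Of the apoptosis regulators, Apaf1, the core of the apoptosome, was read at 31.6, 50.6 and 40.3 CPM against 25.1, 24.8 and 30.4 (-0.72 ± 0.20, adjusted p = 0.454), and Bcl2l2, a survival factor of the BCL2 family, at 11.9, 33.1 and 14.5 against 8.81, 8.83 and 7.22 (-1.40 ± 0.44, adjusted p = 0.505). The list as a whole had a median of -0.03 over 20 genes (0.02 within session 3 and 0.07 with the sex covariate).

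Cell cycle lists had medians of 0.16 for 45 S phase and replication genes, 0.12 for 49 genes of G2 and mitosis and -0.08 for 18 CDK inhibitors and G1 cyclins, with 0 calls in each by edgeR or DESeq2. In the same order they were 0.07, 0.12 and -0.09 within session 3 and 0.25, 0.21 and 0.16 with the sex covariate. Rrm2, the regulated subunit of ribonucleotide reductase that supplies deoxynucleotides, was read at 185, 406 and 207 CPM in WT and 123, 130.4 and 166 in the knockout (-0.95 ± 0.30, edgeR adjusted p = 0.517). The replication initiation factor Mcm10 stood at 52.96, 32.5 and 34.5 CPM against 44.1, 51.5 and 52.8 (0.58 ± 0.23, adjusted p = 0.529), and Ccnd1, a G1 cyclin, at 78.5, 49.4 and 75.5 against 107, 94.0 and 88.9 (0.69 ± 0.29, adjusted p = 0.529). Of the 45 S phase genes, Rrm2 alone had all knockout plates below WT, and 7 members had them all above. Of all genes, 5.45% lay below and 6.14% above. The summed level of the G2 and mitosis genes was 5787, 7141 and 5447 CPM in WT and 3410, 6467 and 6488 in the knockout. Knockout replicate 1 was the lowest of the 6 plates, and Hmgb2, a chromatin protein of dividing cells, was highest in WT replicate 2 at 1304 CPM, against 419.7 and 295 in the other WT plates and 233, 279.9 and 505 in the knockout (-1.44 ± 0.53). Megakaryocyte genes had a median of 0.10 over 15 genes. Fli1, an ETS factor of that lineage, was read at 75.9, 117 and 114 CPM against 66.9, 73.0 and 65.4 (-0.71 ± 0.23, adjusted p = 0.521).

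**Figure D5:**
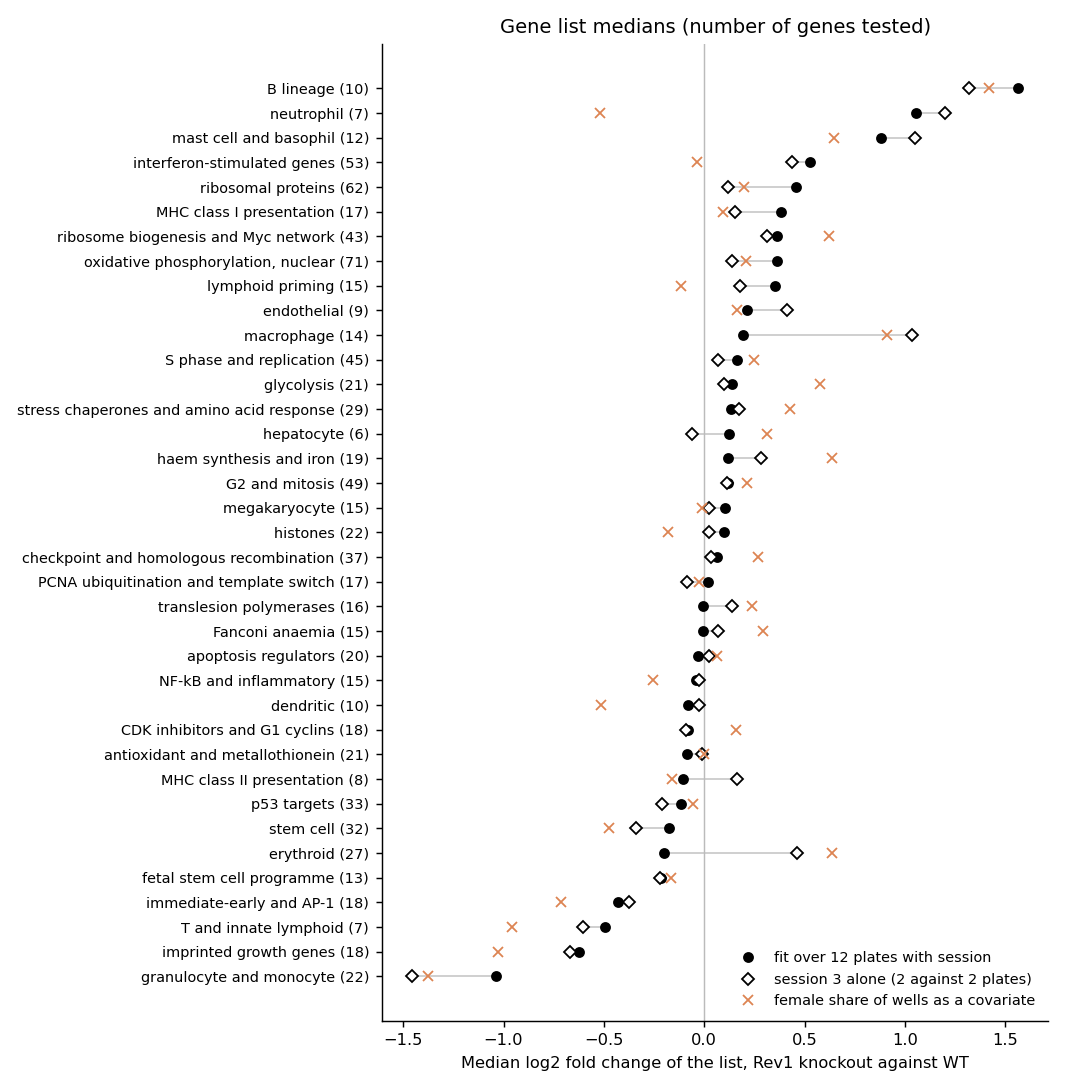
Median log2 fold change (Rev1 knockout against WT, x axis) of 37 gene lists with the number of genes tested in brackets, from the fit over 12 plates (black circles), from session 3 alone (open diamonds) and with the female share of wells as a covariate (orange crosses). The granulocyte and monocyte list lies lowest at -1.04, and the interferon-stimulated genes go from 0.53 to 0.44 within session 3 and to -0.04 with the covariate.

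Markers of cells that the gate should exclude were present in both groups, and those of macrophages and neutrophils differed widely between plates. The 6 hepatocyte genes tested summed to 90.9, 66.5 and 74.4 CPM in WT and 98.2, 103 and 99.99 in the knockout, with no overlap. Much of this was Hnf4a, at 35.6, 30.6 and 34.1 CPM against 46.9, 45.2 and 43.1. Alb, the albumin gene, was sparse and overlapped, at 1.45, 6.25 and 2.18 CPM against 1.22, 1.26 and 6.85. The 14 macrophage genes summed to 909, 167 and 421 CPM in WT and 193, 598 and 649 in the knockout, and the 7 neutrophil genes to 5.01, 734 and 2489 in WT and 2.89, 74.7 and 778 in the knockout. Within session 3 both knockout plates exceeded both WT plates in macrophage RNA, while the neutrophil sums overlapped. The median log2 fold change of the neutrophil genes was 1.05, opposite in sign to the difference in their sums, and it turned to -2.26 with each plate's top well left out and to -0.52 with the sex covariate. That of the macrophage genes was 0.19 (0.51 without the top wells and 0.91 with the covariate). Their part in the granulocyte values above was not tested.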

How the data were processed

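The values are UMI counts, whole numbers per gene and well, which the authors deposited beside read counts and beside transcript counts. The latter are expected counts, in which the authors had corrected UMI numbers for barcodes drawn more than once. The submitters' processing notes name the aligner BWA (0.7.15) and the build GRCm38. The counting tool is not given in the sources used here. Wells were kept from 1000 UMIs upward, ERCC spike-ins not counted, and counts were summed per gene and plate. Replicate numbers follow the order of deposit and only name a plate. No doublet caller was run, since single cells were sorted.

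Genes were tested with edgeR 4.0.16 (R 4.3.3), in 1 quasi-likelihood fit to all 12 plates, with terms for genotype and session, TMM scaling and edgeR's own low-count filter. The filter left 12221 of 19463 genes, of which 422 on X or Y were left out of the text and of counts. Adjusted p-values are Benjamini-Hochberg values over all genes tested, with a threshold of 0.05. DESeq2 1.42.0 was an alternative. Per-plate values were compared by exact permutation (scipy). The code was tested on simulated counts. Gene lists (39) are described by counts and medians, without a set test.

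Named genes were, in each direction, the 12 with the smallest p, the 5 with the largest difference among those with a mean of at least 50 CPM and separated plates, Rev1 and Pcna, and 3 per list. The comparison, the lists and the rule were chosen with earlier results of these data known. The covariate for sex and the fit without each gene's top well were added after seeing the data. A few genes that the rule or the lists include are not reported here.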

Additional observations from a re-analysis of the deposited data

How the results depend on the processing

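No paired analysis was possible because replicate numbers only name plates in order of deposit. The count of genes past the threshold, 0 in the fit described, was 58 in DESeq2, 302 without a filter on low counts (95 higher, 207 lower), 14 in session 3 alone, 4 without double mutant replicates 3 and 4, 3 with thinned wells, 2 with flow cell in place of session, 2 with 3000 UMIs per well, 1 without the double mutant plates and 1 with the female share as a covariate, and 0 to 2 over single plates left out. Among list members it was 12, 68, 7, 3, 1, 2, 2, 1 and 0 in the same order, and 0 to 1. Rev1 passed in DESeq2 (-2.95) and without the filter (-2.85), and ranged from -3.53 to -2.40 over single plates left out. It was -1.91 without a session term, -1.90 in the 6 plates alone, -1.70 with the sex covariate and -4.17 in read counts.

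The median of the ribosomal proteins was 0.14 without a session term, 0.21 with flow cell, 0.15 in the 6 plates alone, 0.12 in session 3, 0.14 without the double mutant plates or without its replicates 3 and 4, 0.83 in read counts and 0.20 with the sex covariate, and ranged from 0.16 to 0.67 over single plates left out. Read counts moved the median of all genes to 0.117, a shift of 0.10. The interferon-stimulated genes had -0.0385 with the sex covariate and 0.41 to 0.70 over single plates left out, and the stem cell genes -0.47 and -0.35 to -0.0811. The granulocyte genes had -0.41 with thinned wells, over the 16 members left, and -1.14 to -0.32 over single plates left out. Pcna turned to -0.12 in session 3, -0.09252 without the double mutant plates, -0.09225 without its replicates 3 and 4 and -0.14 in read counts, and Cdkn1a to -0.16 without a session term and -0.14 in the 6 plates. Over single plates left out, Pcna ranged from -0.12 to 0.57 and Cdkn1a from -0.11 to 0.39. The causes were not tested. Depth limits sparse genes such as Rev1, and session 2 holds only 1 plate besides Rev1 knockout replicate 1.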
